A study of Mus musculus with 12 samples.

Results

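Immediate early genes are switched on within minutes of a stimulus, before any new protein is made, mostly through MAP kinases that act on transcription factors already present in the cell, such as SRF with its ELK partners and CREB. Their mRNAs are short-lived, and many of the proteins they encode are transcription factors or feedback regulators. In sensory neurons they are known to respond to firing and to nerve injury. The 9 genes Fos, Fosb, Junb, Jund, Egr1, Ier2, Dusp1, Zfp36 and Btg2 were chosen by name as mouse symbols, without Jun, and looked up by Ensembl ID in a deposited table of 14675 genes. Of these 9, 8 were found, and Fosb was not analysed here.

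The mice carried an HA-tagged Rpl22 together with Advillin-Cre (RPL22HA+/+;Advillin-Cre+ in the labels), so that pull-down with an HA antibody takes ribosomes of Advillin-expressing sensory neurons of the dorsal root ganglion. The 4 groups, with 3 columns each, cross RNA fraction with virus: RNA from the pull-down (IP) or total RNA (input), from mice given AAV-shGpr151 and AAV-e5'UTR together or AAV-shGpr151 alone. They are called IP with e5UTR, IP shGpr151, input with e5UTR and input shGpr151. All 4 groups carry the hairpin against Gpr151, so nothing below compares it with its absence. The labels call the ganglion neurons adult. No source used here states what the e5'UTR insert is, the exact ages or the numbers of animals. Sources also differ on whether the ganglia were used fresh or the neurons were cultured after a preconditioning sciatic nerve injury.

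The columns held 1514948 to 1517685 counts in IP with e5UTR, 1381220 to 1382261 in IP shGpr151, 975403 to 977366 in input with e5UTR and 984118 to 985277 in input shGpr151. The 3 columns of a group differed by little more than counting noise: the median gene's chi-square between them was 1.08 to 1.12 times the value that counting alone gives. They were therefore summed and counted as 1 sample, a pool, so that IP and input have 2 pools each, which differ in treatment, and e5UTR and shGpr151 have 1 pool each within a fraction. Levels are in CPM, the count scaled to a common library size after TMM, and intervals are 95% and cover counting error only. IP against input was tested with edgeR's quasi-likelihood test on the 4 pools, with Benjamini-Hochberg adjustment over 8085 genes. All its p-values measure the spread between these pools, and nothing in the labels says that they came from separate animals. Avil, the gene whose promoter drives Cre, was higher in IP (log2 1.92 ± 0.17 SE, edgeR adjusted p = 2.6e-07). It stood at 90.3 and 93.5 CPM in the IP pools (with e5UTR first, as in all pairs of pools below), against 28.2 and 20.1 CPM in the input pools. Rpl22 was lower in IP (log2 −0.83 ± 0.12 SE, edgeR adjusted p = 2.2e-05), and Gpr151 was present in all 4 pools with 128, 108, 29 and 35 counts.

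Markers of other cell types had lower summed TMM-scaled CPM in IP. Summed CPM over the columns of a fraction ran from 442 to 489 in IP, against 2044 to 2223 in input, for 11 satellite glia markers (5 of 8 tested lower, 1 higher). The ranges were 459 to 518 in IP against 1150 to 1214 in input for 12 Schwann cell markers (8 of 10 lower). They were 532 to 675 against 1715 to 1825 for 11 fibroblast markers (6 of 10 lower, 2 higher), 101 to 123 against 232 to 284 for 13 macrophage and immune markers (7 of 9 lower, 1 higher), and 63.6 to 102 against 133 to 171 for 10 endothelial and mural markers (2 of 4 lower). Red cell markers, 5 in all, stood at 1.57 to 4.32 in IP against 2284 to 2390 in input. Ncmap, Mrc1, Hbb-bt and Alas2 had 0 counts in both IP pools, while Sparc and S100b, among the most abundant glial markers, did not (1113 and 873 counts, and 1469 and 1408 counts). By contrast, 17 sensory neuron markers summed to 9007 to 9588 CPM in IP against 4764 to 4987 in input, with 12 higher and 3 lower. By library total the calls were 2 higher and 5 lower for satellite glia, 2 and 6 for Schwann cells, 4 and 4 for fibroblasts, 3 and 2 for macrophages and immune cells, and 2 and 1 for endothelial and mural cells (median log2 0.32). The split of calls for fibroblast, macrophage and immune, and endothelial and mural markers thus depends on the scaling. The part these cells play in the values of immediate early genes in input was not tested.

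Promoters of early genes hold short elements that bind the factors named above. RefSeq promoter windows of 300 bases, 250 before to 50 after the annotated start in GRCm38.p6, were matched for 6 of the 8 genes (Fos, Junb, Jund, Dusp1, Zfp36 and Btg2). The full cAMP response element (CRE) TGACGTCA, bound by CREB and its relatives, lay in the windows of Dusp1 and Btg2, and in 1.79% of all 32851 windows. Its core TGACG, which every full site also contains, lay in 4 of the 6 (Dusp1, Btg2, Fos and Junb), and in 20.8% of all windows. The CArG box, the site of SRF, lay in that of Zfp36 and in 1.63% of all. Sites outside these windows, and sites of Egr1 and Ier2, were not searched. Both strands were searched, and a match is a description of the letters and not evidence of binding. These windows of 30 bases are written 5′ to 3′ on the gene's strand with the element in capitals, to set the elements of the genes side by side. Any link between these elements and the IP to input ratios was not tested.
Dusp1, full CRE, chr17:26508597-26508626, minus strand: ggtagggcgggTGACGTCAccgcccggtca
Btg2, full CRE, chr1:134079303-134079332, minus strand: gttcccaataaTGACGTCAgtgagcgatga
Fos, core, chr12:85473811-85473840, plus strand: cagttccgcccagTGACGtaggaagtccat
Junb, core, chr8:84978838-84978867, minus strand: cgcttcctgacagTGACGcgagccgcctcc
Zfp36, CArG box, chr7:28379267-28379296, minus strand: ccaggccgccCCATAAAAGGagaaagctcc
The elements begin 143 bases before the start in Dusp1, 166 in Btg2, 66 in Fos, 106 in Junb and 58 in Zfp36. Jund had no match to any of the elements searched, which were these, the AP-1 site TGANTCA (0 of 6, and 7.81% of all windows), the EGR site GCGNGGGCG (2 of 6, Btg2 and Zfp36, and 5.55% of all) and the TATA box TATAAA (2 of 6, Fos and Junb, and 13.6% of all). The TATA box letters lay at positions −33 to −28 from the annotated start in Fos, but at 1 to 6, not before the start, in Junb.

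The comparison of IP with input asks which of these mRNAs were recovered with tagged ribosomes more, or less, than in total RNA. Dusp1 and Jund were several-fold higher in IP, Junb and Egr1 did not pass the test, and the other 4 genes had too few counts to be tested. Of the 4 genes that passed the filter on low counts, 2 were called higher and 0 lower, where 33.5% of all tested genes were called higher and 36.2% lower (69.7% in either direction). With the 12 columns taken as samples these 2 were again called and the other 2 were not, beside 38.7% higher and 38% lower. These 4 passed with the help of their counts in IP, where sequencing was deeper, so their number says nothing of the other 4. As total RNA comes from all cells of the sample, fewer cells of a type and less RNA per cell cannot be told apart in input.

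**Figure D1:**
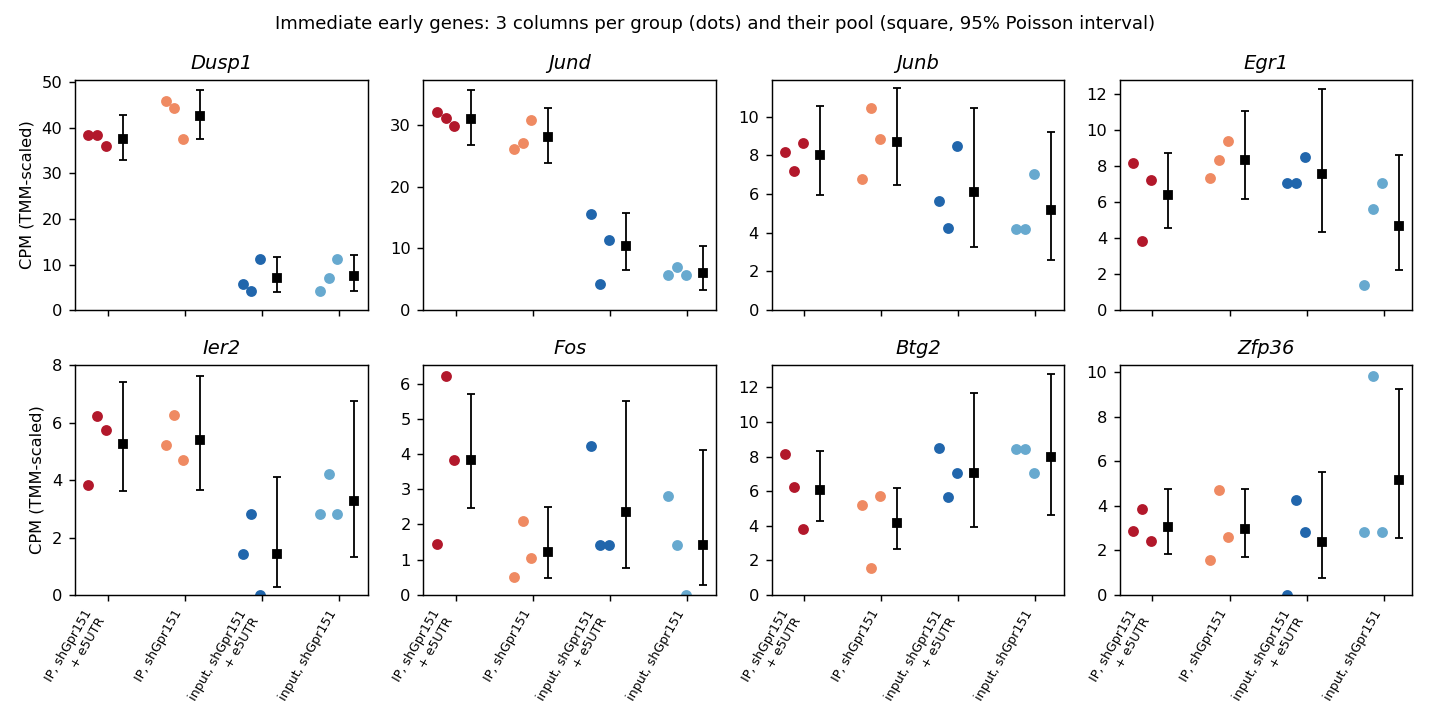
CPM (TMM-scaled, linear axis from 0) of the 8 genes in the 4 groups. Dots are the 3 deposited columns and squares the pool with its 95% Poisson interval. Dusp1 and Jund have all 6 IP columns above all 6 input columns, and the other genes overlap.

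The first set are subunits of AP-1, a dimer of JUN and FOS family proteins that binds DNA. Jund, the JUN family member that is known to be expressed in resting cells as well as after stimulation, had 67, 65 and 62 counts in IP with e5UTR, 50, 52 and 59 in IP shGpr151, 11, 3 and 8 in input with e5UTR, and 4, 5 and 4 in input shGpr151. The pools stood at 31.0 CPM (26.8 to 35.7) and 28.0 (23.8 to 32.7) in IP, against 10.4 (6.49 to 15.7) and 6.09 (3.24 to 10.4) in input. Every IP column was above every input column, which held for 24.1% of all tested genes. Jund rose 3.58-fold in IP (log2 1.84 ± 0.26 SE, edgeR adjusted p = 2.3e-05), and 92.1% of tested genes had a smaller ratio.

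Junb, its relative with a typical early response, had 17, 15 and 18 counts in IP with e5UTR, 13, 20 and 17 in IP shGpr151, 4, 3 and 6 in input with e5UTR, and 3, 3 and 5 in input shGpr151. In CPM the pools were close, with 7.99 (5.93 to 10.5) and 8.69 (6.45 to 11.5) in IP against 6.12 (3.26 to 10.5) and 5.15 (2.57 to 9.22) in input, and the columns overlapped. Its log2 ratio was 0.56 ± 0.33 (edgeR adjusted p = 0.14), a difference that could not be told from 0 with these counts. Both genes lie in the same libraries, so the share of Jund among their summed counts does not depend on scaling. It was 79.5% (73.9 to 84.4, Clopper-Pearson) and 76.3% (70.0 to 81.9) in the IP pools, against 62.9% (44.9 to 78.5) and 54.2% (32.8 to 74.4) in the input pools. The intervals of IP and input overlap for this share.

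Fos, the inducible partner of the JUN proteins and the best-known activity marker of neurons, was rare. It had 3, 13 and 8 counts in IP with e5UTR, 1, 4 and 2 in IP shGpr151, 3, 1 and 1 in input with e5UTR, and 2, 1 and 0 in input shGpr151. IP to input was 1.63 (0.609 to 5.47) with e5UTR and 0.866 (0.198 to 5.19) with shGpr151, and both intervals hold 1. With 5 and 3 counts in the input pools, the intervals leave room for a several-fold higher level in IP.

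The 2 remaining nuclear factors differed in depth. Egr1, a zinc finger transcription factor induced by growth factors and firing, had 17, 8 and 15 counts in IP with e5UTR, 14, 16 and 18 in IP shGpr151, 5, 5 and 6 in input with e5UTR, and 1, 4 and 5 in input shGpr151. The pools stood at 6.39 CPM (4.57 to 8.71) and 8.34 (6.15 to 11.1) in IP against 7.53 (4.31 to 12.2) and 4.69 (2.25 to 8.62) in input, and the groups overlapped. Its log2 ratio of 0.27 ± 0.36 did not pass (edgeR adjusted p = 0.52), and without the input shGpr151 pool it was −0.036 (adjusted p = 0.95). Ier2, a small nuclear protein of the early response, had 8, 13 and 12 counts in IP with e5UTR, 10, 12 and 9 in IP shGpr151, 1, 2 and 0 in input with e5UTR, and 2, 3 and 2 in input shGpr151. In CPM, 5 of its 6 IP columns were above its highest input column. IP to input was 3.73 (1.17 to 19.0) with e5UTR and 1.64 (0.710 to 4.42) with shGpr151. Where no filter was applied, the 4 genes with too few counts entered the test as well. There the log2 ratio of Ier2 was 1.30 ± 0.46 (edgeR adjusted p = 0.034). Fos (0.56, adjusted p = 0.54), Zfp36 (−0.20, adjusted p = 0.76) and Btg2 (−0.42, adjusted p = 0.34) did not pass. Of all 14675 genes in that fit, 3408 were called higher and 3915 lower.

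The last set are feedback regulators. Dusp1 encodes a nuclear phosphatase that switches off the MAP kinases p38, JNK and ERK. It had 80, 80 and 75 counts in IP with e5UTR, 88, 85 and 72 in IP shGpr151, 4, 3 and 8 in input with e5UTR, and 3, 5 and 8 in input shGpr151. The pools stood at 37.6 CPM (32.9 to 42.7) and 42.6 (37.4 to 48.3) in IP against 7.06 (3.95 to 11.6) and 7.50 (4.29 to 12.2) in input. Every IP column lay above every input column, and the lowest IP column, at 36.0 CPM, was far above the highest input column, at 11.3 CPM. Dusp1 rose 5.48-fold in IP (log2 2.45 ± 0.24 SE, edgeR adjusted p = 5.1e-07), and 97.4% of tested genes had a smaller ratio. Its ratio was 5.32 (3.16 to 9.66) with e5UTR and 5.68 (3.43 to 10.1) with shGpr151.

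Zfp36 encodes tristetraprolin, which binds AU-rich elements and recruits the machinery that shortens poly(A) tails. It had 6, 8 and 5 counts in IP with e5UTR, 3, 9 and 5 in IP shGpr151, 0, 3 and 2 in input with e5UTR, and 2, 7 and 2 in input shGpr151. IP to input was 1.29 (0.466 to 4.42) with e5UTR and 0.573 (0.253 to 1.35) with shGpr151. Btg2, an antiproliferative protein that also acts on the CCR4-NOT deadenylase, had 17, 13 and 8 counts in IP with e5UTR, 10, 3 and 11 in IP shGpr151, 6, 4 and 5 in input with e5UTR, and 6, 6 and 5 in input shGpr151. Its IP to input ratio was 0.860 (0.462 to 1.68) with e5UTR and 0.524 (0.270 to 1.04) with shGpr151. In both genes 0 of 6 IP columns were above the highest input column, and all intervals hold 1.

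**Figure D2:**
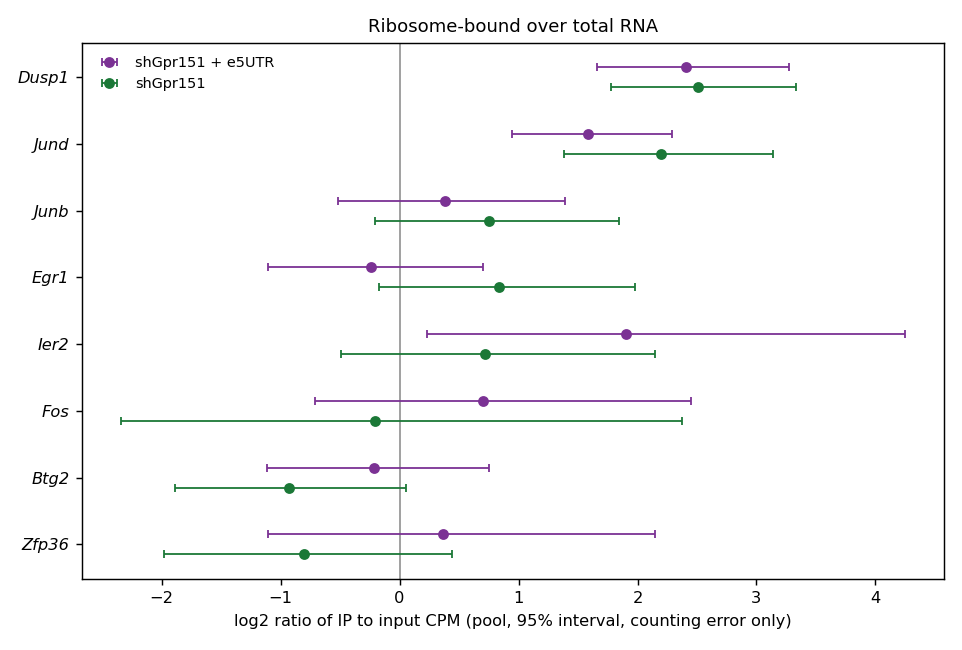
Log2 ratio of IP to input CPM for each gene within each virus treatment. Points are ratios of pooled counts and bars 95% Clopper-Pearson intervals (counting error only). The bars of Dusp1 and Jund lie wholly to the right of 0 in both treatments, as does that of Ier2 with e5UTR, while those of the other genes cross 0.

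Dusp1 and Jund were grouped because they were the genes called higher in these counts, so their joint share is a description and supports nothing further. Within each library they made up 67.8% (64.0 to 71.4) and 69.6% (65.7 to 73.4) of the counts of the 8 genes in the IP pools, against 39.4% (29.4 to 49.98) and 33.0% (23.3 to 43.8) in the input pools. No scaling between libraries enters this share. The other 6 genes summed to 32.6 CPM (28.3 to 37.4) and 30.8 (26.4 to 35.6) in IP and to 26.8 (20.3 to 34.8) and 27.6 (21.0 to 35.7) in input.

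Scaling decided the calls of Junb and Egr1. TMM put the median log2 ratio of all tested genes at 0.06, and scaling by library total put it at 0.99, with 62.2% of genes called higher and 23.4% lower. By library total all 4 tested genes were called higher. Junb then stood at log2 1.49 ± 0.32 (edgeR adjusted p = 0.00071) and Egr1 at 1.19 ± 0.35 (adjusted p = 0.0063), both nearer to that median than Jund and Dusp1. Jund (2.77 ± 0.25) and Dusp1 (3.38 ± 0.23) were called under either scaling. The place of each gene among all tested genes moved little, with 65.0% and 56.2% of genes below Junb and Egr1 under TMM and 64.9% and 56.2% by library total.

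A wider list of 67 other immediate early genes, of which 61 were in the table and 33 tested, was mixed as well. It had 16 genes higher and 6 lower in IP with a median log2 ratio of 0.54, beside 33.5% higher and 36.2% lower and a median of 0.06 over all tested genes. By library total 27 were higher and 3 lower, with a median of 1.46, beside 62.2% higher, 23.4% lower and a median of 0.99 over all tested genes. Jun, the main partner of Fos in AP-1 and a driver of the axon injury response, stood at 98.0 and 93.5 CPM in IP against 26.4 and 26.2 in input (log2 1.86 ± 0.15, edgeR adjusted p = 1.1e-07). Atf3, which dimerises with Jun and marks injured sensory neurons, stood at 161 and 156 CPM against 88.5 and 73.6 (0.97 ± 0.14, adjusted p = 2.7e-05). The growth arrest and DNA damage gene Gadd45a (1.91 ± 0.16) and the cAMP-responsive modulator Crem (0.90 ± 0.20) also rose in IP. So did Csrnp1, a nuclear protein induced by AXIN1 (2.11 ± 0.47, the largest of the called ratios in the list). Csrnp1 had 42 and 56 counts in IP but 5 and 3 in input, so it passed the filter through IP. Genes of this list and the next met the same filter, which the deeper sequencing of IP helps to pass.

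Others of that list ran the opposite way or did not pass. Klf6, a zinc finger factor linked to axon growth, was the lowest of the called genes, at 29.4 and 25.9 CPM in IP against 116 and 109 in input (log2 −2.02 ± 0.14, edgeR adjusted p = 2.1e-08). Id3, an inhibitor of basic helix-loop-helix factors, fell to 90.6 and 83.3 CPM in IP against 271 and 271 in input (−1.64 ± 0.12). Both were also lower by library total (−1.09 and −0.71). Gadd45g (0.07 ± 0.16) and Ier3 (−0.26 ± 0.18, adjusted p = 0.21) did not pass. By library total both were called higher, Gadd45g at 1.00 (adjusted p = 6.2e-05) and Ier3 at 0.67 (adjusted p = 0.0030).

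The list of 48 genes that act before or after the response (the RAS to ERK cascade, SRF and CREB factors with their co-activators, and the mRNA decay partners of Zfp36 and Btg2) had 46 in the table and 30 tested, with 11 higher and 7 lower in IP and a median log2 ratio of 0.28. Over all tested genes 33.5% were higher and 36.2% lower, so the count of higher genes was near the background. By library total 22 were higher and 3 lower (median 1.21), beside 62.2% and 23.4% of all tested genes. ERK cascade genes were among those that rose. Map2k2, which encodes the ERK kinase MEK2, was at 54.8 and 61.0 CPM in IP against 12.7 and 11.7 in input (log2 2.24 ± 0.20, edgeR adjusted p = 2.0e-07). Mapk3 (ERK1) was at log2 1.36 ± 0.14 and Hras at 0.60 ± 0.19 (adjusted p = 0.014). Rps6ka2, an ERK-activated kinase of the RSK family, had the largest called ratio (2.67 ± 0.33). It had 123 and 95 counts in IP but 6 and 6 in input, so it too passed the filter through IP.

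Among the co-activators and decay factors, Crebbp, the histone acetyltransferase that CREB recruits, was at 26.8 and 38.6 CPM in IP against 328 and 334 in input (−3.34 ± 0.16, edgeR adjusted p = 4.2e-10). Pan3, of a deadenylase, was at −2.16 ± 0.13 and Elavl1, which binds AU-rich elements, at −2.38 ± 0.13. Pabpc1, the cytoplasmic poly(A)-binding protein, did not pass (−0.16 ± 0.17), and by library total was called higher (0.77, adjusted p = 0.00085). Decay factors ran both ways: Cnot1 (0.76 ± 0.32, edgeR adjusted p = 0.044) and Cnot2 (1.496 ± 0.445, adjusted p = 0.0085), subunits of the CCR4-NOT deadenylase, and the AU-rich element binder Hnrnpd (0.63 ± 0.21, adjusted p = 0.016), named after their values were seen, were called higher. Of the same complex, Cnot3 was called lower (−1.30 ± 0.31, edgeR adjusted p = 0.0019), and Cnot7 (0.03 ± 0.27) and Cnot8 (0.27 ± 0.38) did not pass. By library total Cnot3 was not called (−0.37, edgeR adjusted p = 0.26), and Cnot7 (0.96) and Cnot8 (1.20) were called higher. In the RefSeq annotation none of the 8 genes overlaps another annotated gene, which was checked for these 8 only.

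**Figure D3:**
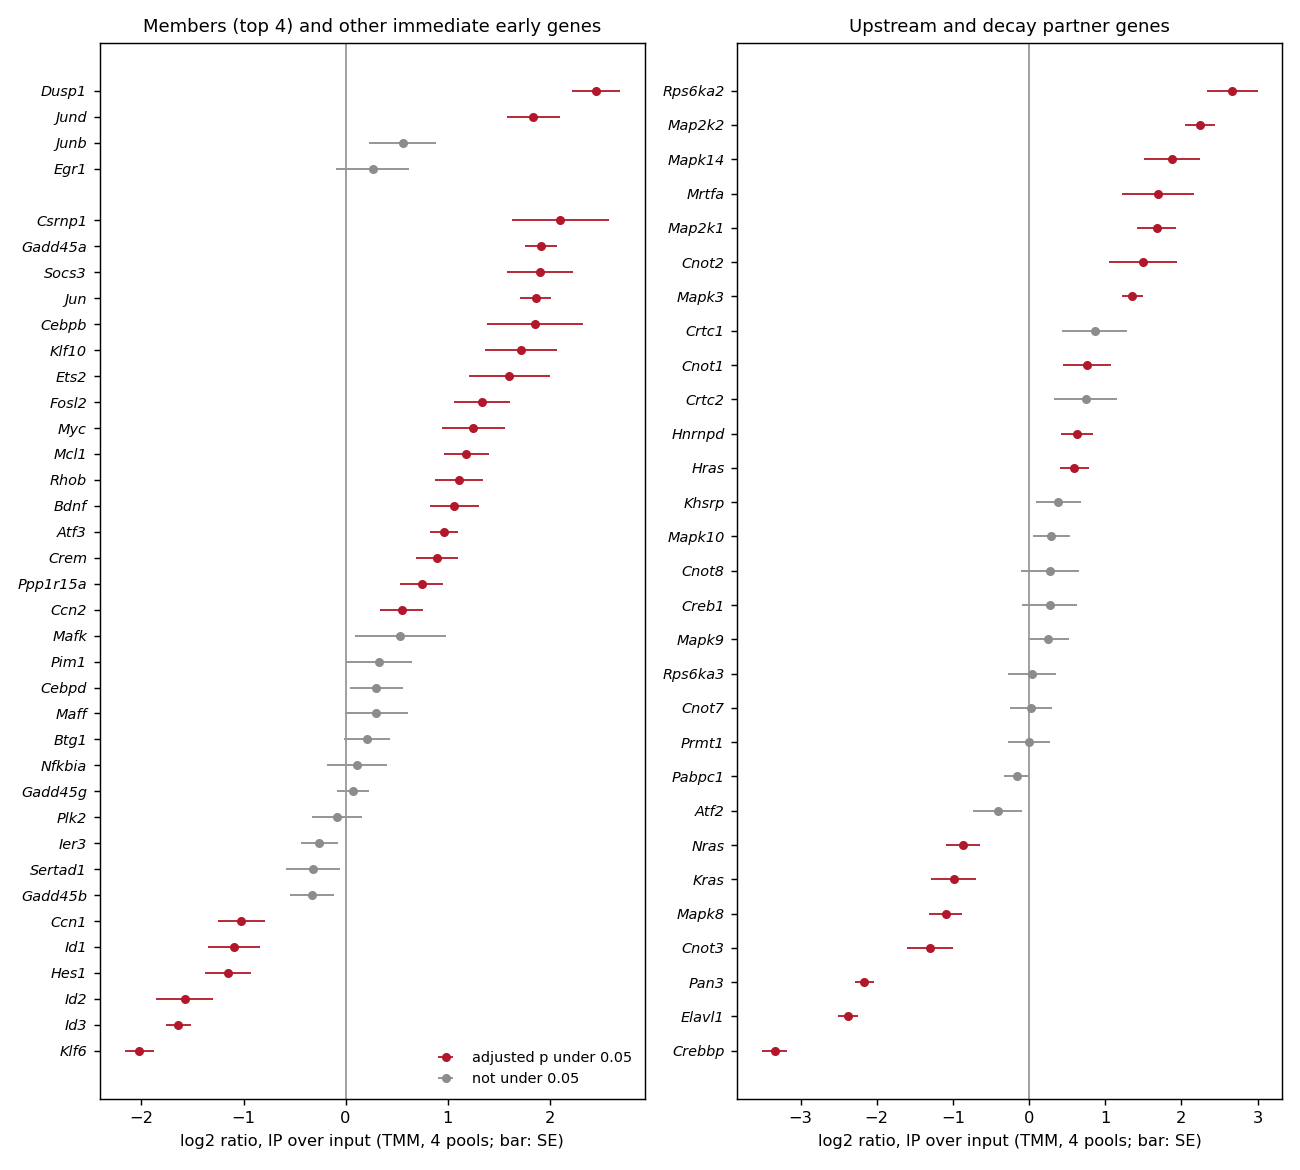
Log2 ratio of IP to input (TMM, 4 pools; bars are SE) for the 4 tested genes (top left), 33 other immediate early genes (left) and 29 of the 30 tested upstream and decay partner genes (right). Red points passed an adjusted p of 0.05 and grey points did not. In each list red points lie on both sides of 0, apart from the 4 genes at the top left, where both red points are to the right.

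The 5 genes whose profile over the 4 pools was closest to the mean profile of the 4 tested genes were Agap1, Meig1, Il6st, Tln1 and Mrpl37. The root mean square difference ran from 0.00853 to 0.0433 on the log2(CPM + 1) scale, each profile centred on its own mean, among tested genes with at least 100 counts. The match rests on only 4 pools. The mean mixes Dusp1 and Jund (log2 2.45 and 1.84) with Junb and Egr1 (0.56 and 0.27). The 5 genes, at log2 1.24 to 1.43, lie between these pairs. Il6st, the shared signal-transducing receptor of the interleukin-6 family, stood at 39.8 and 44.5 CPM in IP against 19.8 and 15.9 in input.

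The comparison of e5UTR with shGpr151 asks what the second virus, AAV-e5'UTR, changed in mice that also had the hairpin. With 1 pool a group there is no replicate check, so ratios are given with counting intervals and without a test, and a gene was counted as apart at 2-fold either way with at least 30 counts in the 2 pools. Fos was the only one of the 8 genes that was apart in IP, and 3.6% of 10337 genes were apart there by the same rule (1.58% higher, 2.02% lower). It had 24 counts in IP with e5UTR and 7 in IP shGpr151, or 3.84 CPM (2.46 to 5.71) and 1.22 CPM (0.489 to 2.51), a ratio of 3.15 (1.32 to 8.66). The columns, at 3, 13 and 8 counts with e5UTR and 1, 4 and 2 with shGpr151, overlapped. Without column 2 of IP with e5UTR the ratio was 2.17, and without column 2 of IP shGpr151 it was 4.91. Leaving out any 1 of 5 of the 6 IP columns left fewer than 30 counts, so that Fos no longer counted as apart.

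The other 7 genes were less than 2-fold apart between treatments in IP, but only for some did the counting interval leave out a 2-fold ratio. Spread between samples is not in these intervals. Dusp1 had a ratio of 0.882 (0.734 to 1.06) on 480 counts and Jund of 1.11 (0.894 to 1.37) on 355, Junb of 0.919 (0.609 to 1.39) and Ier2 of 0.979 (0.581 to 1.65), so for these a 2-fold difference lies outside the counting interval. The intervals of the other 3 reach 2-fold, with Egr1 at 0.766 (0.491 to 1.19), Zfp36 at 1.03 (0.506 to 2.10) and Btg2 at 1.46 (0.851 to 2.54). All 7 intervals hold 1. With the 12 columns as samples, edgeR called 0 of the 4 tested genes in IP, beside 11% of all genes, 0 in input, beside 0.198%, and 0 for the ratio of IP to input, beside 5.11%. Summed over the 8 genes, the IP pools stood at 101 CPM (93.4 to 109) with e5UTR and at 101 CPM (93.3 to 110) with shGpr151.

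In input, 3 of the 8 genes had 30 counts and 0 of these were apart, beside 1.86% of 6834 genes (0.995% higher, 0.863% lower). Jund was at 1.70 (0.819 to 3.67), Dusp1 at 0.942 (0.434 to 2.03) and Btg2 at 0.886 (0.412 to 1.89). The other 5 rested on 8 to 26 counts and ran from 0.431 (0.0718 to 1.89) for Ier2 to 1.67 (0.326 to 10.8) for Fos, with 1 inside every interval. Summed over the 8 genes, the input pools stood at 44.3 CPM (35.8 to 54.2) with e5UTR and at 41.2 CPM (33.1 to 50.8) with shGpr151. Among the 67 other immediate early genes, 2 of 47 with enough counts were apart in IP, beside 3.6% of 10337 genes, and 0 of 29 in input. The 2 were Dusp10 and Plk3, both higher with e5UTR and chosen here after their values were seen. Jun was at 1.05 in IP and 1.00 in input, and Atf3 at 1.04 in IP and 1.20 in input.

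**Figure D4:**
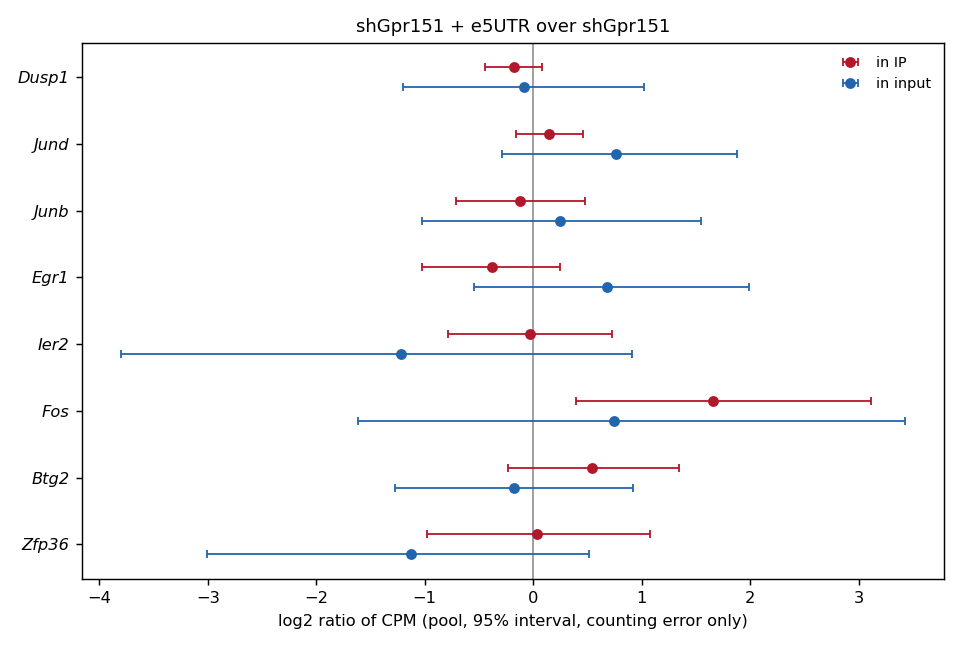
Log2 ratio of shGpr151 with e5UTR to shGpr151 alone for each gene, in IP (red) and in input (blue). Points are ratios of pooled CPM and bars 95% Clopper-Pearson intervals (counting error only). Every bar crosses 0 except that of Fos in IP, at a ratio of 3.15, and the input bars are wide because few counts lie behind them.

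The ratio of IP to input was also set side by side between the treatments. It was at least 2-fold apart in 3 of the 8 genes, beside 18% of 11703 genes by the same rule (8.85% higher, 9.15% lower). Ier2 (2.27, 0.539 to 9.58) and Zfp36 (2.25, 0.649 to 7.80) had the higher ratio with e5UTR, and Egr1 (0.477, 0.195 to 1.17) the lower. All 8 counting intervals hold 1, so at this depth no difference in the ratio could be seen. Dusp1, which has the most counts of the 8, was at 0.936 (0.453 to 1.94).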

How the data were processed

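The authors deposited estimated counts per Ensembl gene ID, as whole numbers, in 1 table whose 12 column names each match 1 sample. Per the labels, the kit was a Nanopore cDNA-PCR one with barcodes. minimap2, Salmon, GRCm39 and mm39 appear, without versions, in the submitters' processing notes. No source used here states the annotation release, filters, strand use or pooling. A symbol was found for 13191 of 14675 IDs. Members and lists were chosen with earlier results of these data known. The 3 columns of a group were summed. filterByExpr on the 12 columns (minimum count 10, minimum total 15) left 8085 genes for edgeR 4.0.16 in R 4.3.3 (TMM, quasi-likelihood, 2 pools against 2, threshold 0.05). The code was also run on simulated pools in which IP and input had the same composition apart from a limited set of changed genes. That run cannot judge the scaling between IP and input. An SE is the log2 ratio divided by the square root of F. The limit for 0 counts (3 counts) is 0.479 CPM for IP with e5UTR, 0.521 for IP shGpr151 and 1.41 for either input pool. PCR reads are not independent molecules, so intervals cover counting error only. From both further lists the 8 tested genes with most counts and the highest and lowest called were named, of which 1 is not reported here. Alternatives were other scalings (including DESeq2 1.42.0), filters, tests, blocks, and leaving out columns or pools.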

Additional observations from a re-analysis of the deposited data

How the results depend on the processing

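Dusp1 and Jund were called higher in IP under every scaling, filter, test and left-out column or pool that was run (log2 2.34 to 3.38, adjusted p up to 0.00084, and 1.51 to 2.77, up to 0.0053). Junb and Egr1 passed by library total only, which called 4 of the 8 genes higher. Egr1 ran from −0.036 without the input shGpr151 pool (adjusted p = 0.95) to 0.65 without the input pool with e5UTR. By library total the other immediate early genes had 27 higher and 3 lower, and the upstream and decay partner genes 22 and 3. Of the upstream and decay partner genes 6 were higher with the DESeq2 test and, without single pools, 7 to 12. Over all genes, 5031 were higher and 1895 lower by library total, against 2706 and 2928 by TMM. With the DESeq2 test 1811 were higher and 2600 lower, so the 6 in the list goes with fewer higher calls among all genes. Without any single pool, too, fewer genes were called higher among all genes than by TMM. Such fits leave 1 pool in a fraction, so the 7 to 12 are not read as a property of the list. In e5UTR against shGpr151 the genes apart numbered 0 to 1 in IP without single columns, by construction since Fos then fell under 30 counts, and 0 with the 12 columns as samples (edgeR, adjusted p from 0.50 to 0.86 for the 4 tested). In input they numbered 1 at 1.5-fold (Jund) and 0 to 1 without single columns. For the ratio of IP to input, the genes apart were 6 at 1.5-fold, 0 with an interval that leaves out 1, 0 with the 12 columns and 1 to 4 without single columns. Same-numbered columns of different groups did not deviate together (r −0.06 to 0.04 over 18 pairs), and with the replicate number as a block over the 12 columns Dusp1 was at 2.48 and Jund at 1.92, with 0 of the 4 tested genes called for e5UTR in IP, 0 in input and 0 for the ratio. Depth limits all 8 genes in input, where each had 3 to 22 counts in a pool.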

Other observations

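Dusp1 belongs to the dual-specificity phosphatases, of which 20 genes named Dusp with a number were in the table and 8 were tested. This group was chosen after the values were seen. Under TMM, Dusp1 was the only tested one called higher in IP and Dusp15 the only one called lower (log2 −3.76 ± 0.44, edgeR adjusted p = 3.6e-06, with 10 and 3 counts in IP against 35 and 29 in input). Over all tested genes 33.5% were called higher and 36.2% lower. By library total these shares were 62.2% and 23.4%, and calls were not counted for this group under that scaling. The median log2 ratio of the 8 was −0.01 under TMM. Dusp3, which was also tested, was at 0.06 ± 0.19 and Dusp7 at −0.09 ± 0.33, and neither passed. Dusp5, an inducible ERK phosphatase, had too few counts for the test, with 19 and 20 in IP against 1 and 1 in input. Its ratio was 6.45 (1.03 to 268) with e5UTR and 7.42 (1.19 to 308) with shGpr151. Arc, the activity-regulated gene of neuronal dendrites, also chosen after its values were seen, had 20 and 14 counts in IP against 1 and 0 in input, and its ratio with e5UTR was 6.79 (1.09 to 281).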
